A study of Mus musculus with 4 samples.

Results

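The genes described here encode the actin cytoskeleton and the contractile machinery built on it: actins, the proteins that bind actin monomers, tropomyosins, the chains and kinase of myosin II, thin filament regulators, filament cross-linkers, and the transcription factor SRF with its MRTF cofactors. They were chosen by symbol from a list of 39 genes. Of these, 38 had a row in the deposited tables of 35604 gene rows each. A gene counted as measured in a table when its row had status OK and at least 1 FPKM (fragments mapped to a gene, adjusted for how long its transcripts are and how deeply the library was sequenced) in either library. By that rule 32 members were measured in culture, 34 in tumours, 30 in both and 36 in at least 1 table.

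The study exposed mouse Schwann cells that lack Nf2, the gene of the tumour suppressor merlin, to NXD30001, named in the series title as an inhibitor of the chaperone HSP90. All 4 libraries came from ESC-FC1801, a single line of embryonic Schwann cells on the FVB/N background, whose floxed Nf2 alleles were deleted in culture with a Cre adenovirus, so the untreated libraries carry the deletion too. Cultured cells were given DMSO or 1 µM NXD30001 for 24 h, in medium with neuregulin and forskolin. Mice that carried an ESC-FC1801 allograft tumour were given vehicle or 100 mg/kg NXD30001, with 3 doses a week over 4 weeks. A label field calls all 4 samples cultured cells, but the titles, sources and treatments place 2 of them in tumours. The age of the mice and the number of tumours behind a library are not given in the sources used here, and tumours also hold cells of the host. There was 1 library in each of the 4 groups. No difference therefore has a replicate error and no test was possible, so a gene called higher or lower is so in these libraries, with nothing shown for other cultures or mice.

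Actin filaments assemble from monomers that profilin and thymosins hold in reserve, and cofilin severs old filaments. Tropomyosins and caldesmon set where myosin II can bind, and myosin II pulls on filaments once its light chains are phosphorylated. Monomeric actin holds MRTF proteins (Mkl1 and Mkl2 in the tables) in the cytoplasm. When monomers are used up MRTF enters the nucleus and, with SRF, drives many actin and contractile genes through a DNA element called the CArG box. Schwann cells use this machinery to extend along axons and to ensheathe them, and merlin is itself a protein that links membranes to actin.

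Nf2 itself was at 15.9 and 12.5 FPKM in the untreated and treated cultures and at 57.2 and 42.8 FPKM in the untreated and treated tumours. By the labels the cells of all 4 libraries carry the deletion. The tables give no values by exon, so these levels check no label. Each difference below is log2(FPKM + 1) of the treated library less that of its untreated partner. Values given on the log2 scale are such differences, and where 2 levels stand together the untreated one comes first. Adding 1 FPKM shrinks the change of genes at low levels. The authors' deposited tables also allow an implied error to be computed for the log2 ratio of a gene, as their natural log fold divided by their test statistic. It rests on the authors' model of 2 libraries and covers no spread between cultures or animals. For genes with a mean level of 30 to 300 FPKM its median was 0.69 in culture and 0.30 in tumours. The treated library was 1.05 times as deep as the DMSO library by the lowest genes of the culture table, and 1.19 times as deep as the vehicle library in tumours. Of the genes that mark Schwann cells, Sox10 was at 8.42 and 4.40 FPKM in the untreated and treated cultures and at 47.0 and 139.8 FPKM in the untreated and treated tumours, whereas S100b was below 1 FPKM in all 4 libraries. The tables were normalised separately, so levels are compared only within a table, and where culture and tumour levels stand side by side they were set across tables.

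In culture Cald1, Cnn2, Cnn3 and Myl9 were higher in treated cells, the cytoplasmic actin genes lay slightly lower, and Myh10 was far lower. Of 32 measured members, 19 were higher by any amount (59.4%, background 40.6%). At least 2-fold higher were 10, or 31.3%, where the share of all compared genes was 12.6%. Only Myh10 was at least 2-fold lower, 3.13% of the members against 24.8% of all compared genes. The median difference of the members was 0.35 and that of all compared genes -0.25, and directions below are as deposited. Once centred on that median, Actg1, Tpm4, Actn1, Cfl1 and Lima1 turned from lower to higher in culture, and the shares of all genes at least 2-fold higher and lower became 17.8% and 18.4%. In tumours the members lay close to 0, with a median of 0.043 against -0.030 for all compared genes. Of 34 measured members, 18 were higher by any amount (52.9%, background 47.3%). Acta2 alone was at least 2-fold higher (2.94%, background 7.32%, or 4.01% among genes at 1 FPKM or more with vehicle), and none was 2-fold lower (background 6.93%). The members past 2-fold were thus the smooth muscle actin gene in the tumour pair and, in culture, genes of caldesmon, palladin, filamin C, tropomyosin 2, leiomodin 1, Cnn2, Tagln, Fhl2, Myl9 and the row named Myl6, besides Myh10.

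**Figure D1:**
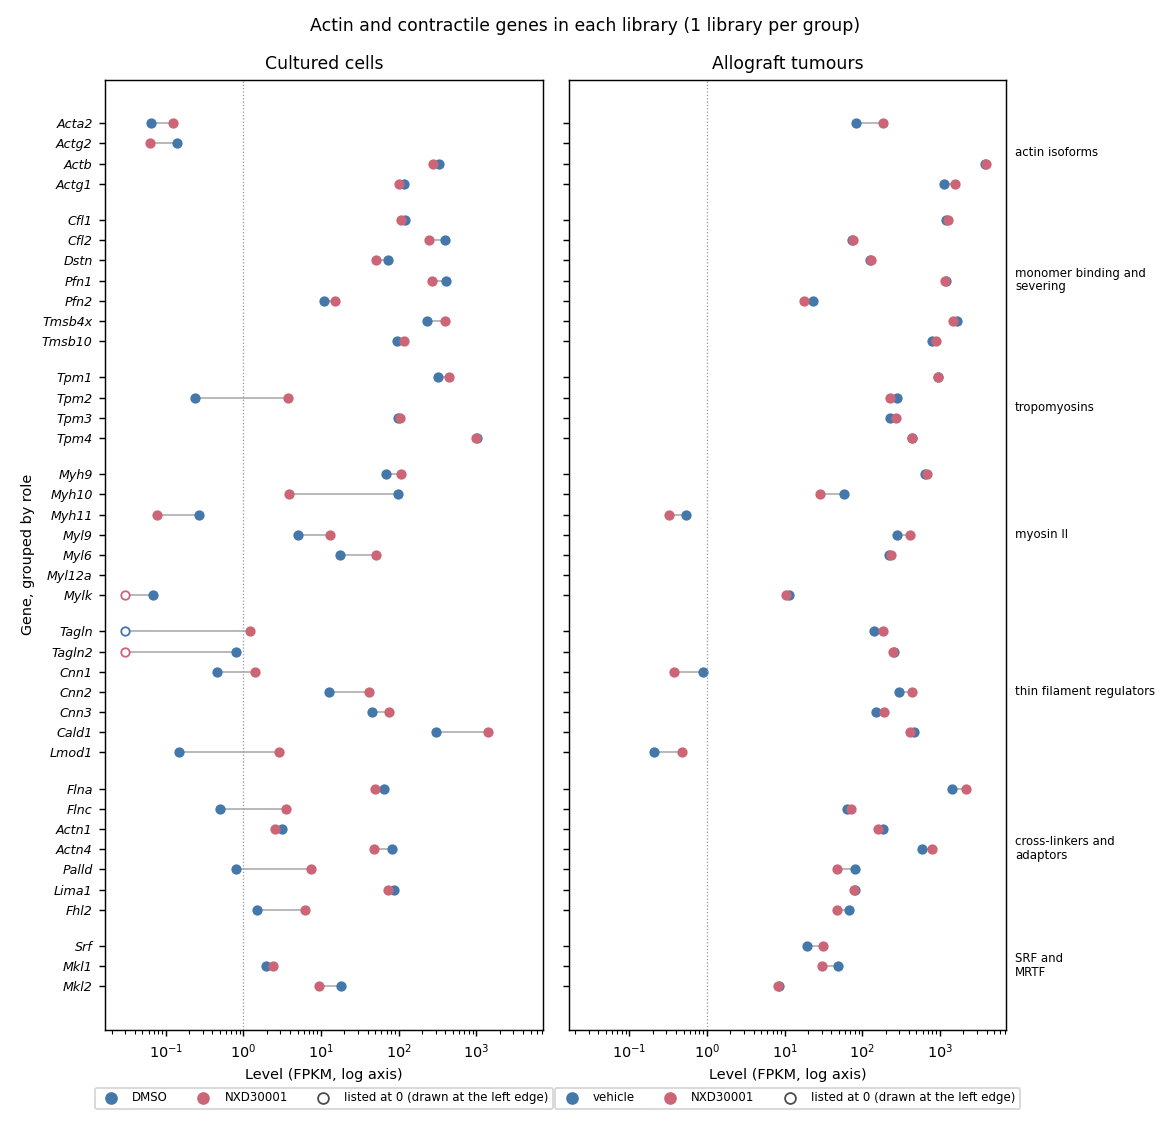
Level of each listed gene in FPKM on a log axis, grouped by role, in the culture pair (left) and the tumour pair (right); each point is 1 library, and rows without an OK status are left blank. The long bars in culture belong to Myh10, from 98.7 down to 3.84 FPKM, and to genes that start below 2 FPKM with DMSO, such as Tpm2 and Palld, while most tumour pairs lie close together.

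The culture count depended on low genes. Of members at 10 FPKM or more in either library 4 of 23 were at least 2-fold higher, with a median of -0.032, where 13.6% of all genes at that minimum were. Without members whose locus is given for another row 6 of 21 were (12.1% of all such genes). With a pseudocount of 5 FPKM the count was 4 of 32 (7.16% of all genes). Cnn1, Flnc, Lmod1, Palld, Tagln and Tpm2 were below 1 FPKM with DMSO, so they were measured only because the treated library was higher. Of these 6, 5 were at least 2-fold higher, and so were 66.4% of all genes that passed in the same way. Among the 26 members at 1 FPKM or more with DMSO, 5 were at least 2-fold higher (19.2%, background 9.06%). The authors' deposited table called 5 members higher in culture, namely Cald1, Flnc, Lmod1, Palld and Tpm2 (15.6%, background 2.75%), and Myh10 lower (3.13%, background 7.14%). Of those 5, only Cald1 was at 1 FPKM or more with DMSO. The others were measured only through the treated library, so they could only be higher. In tumours the deposited table called Acta2, Actb, Actg1 and Flna higher (11.8%, background 3.14%) and Palld lower (2.94%, background 2.45%). The difference was smaller than the implied error for 16 of the 31 members that had one in culture and for 15 of 34 in tumours.

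**Figure D2:**
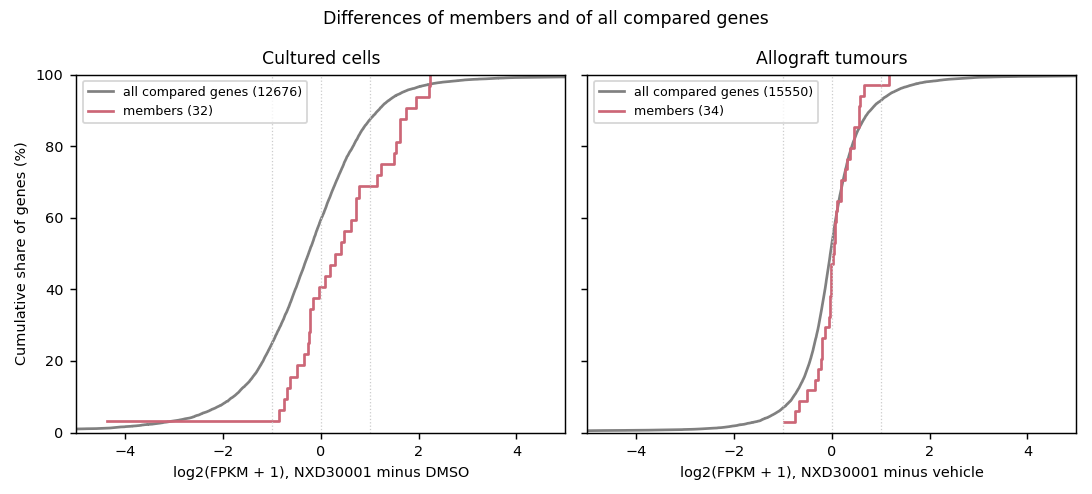
Cumulative share of genes (%) against the difference on the log2(FPKM + 1) scale for the members and for all compared genes, in culture (left) and tumours (right), with dotted lines at no change and at 2-fold. In culture the curve of the 32 members lies to the right of that of all 12676 genes, apart from Myh10, whereas in tumours the curves of 34 members and 15550 genes nearly overlap.

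Promoters of several members carry the CArG box that SRF binds, and they are shown because the genes behind them differ in how they moved. The element was searched as CC, then 6 bases that are each A or T, then GG, which reads the same on both strands, in the 250 bases before each RefSeq start site (build GRCm38.p6). Of the 39 listed genes 35 had a start site in the table, with Mkl1 and Mkl2 matched under their present symbols, and 7 of the 35 (20%) held at least 1 CArG box: Actg1, Cnn2, Fhl2, Lima1, Myl6, Myl9 and Srf. Over all 27025 genes of that table the share was 1.62%. Actb, Actg2, Tagln and Myh11 had no start site there and were not searched. Capitals mark the box, and each sequence runs 5′ to 3′ on the gene's strand and ends at the last base before the start site.
Myl9, chr2:156775214-156775463, plus strand: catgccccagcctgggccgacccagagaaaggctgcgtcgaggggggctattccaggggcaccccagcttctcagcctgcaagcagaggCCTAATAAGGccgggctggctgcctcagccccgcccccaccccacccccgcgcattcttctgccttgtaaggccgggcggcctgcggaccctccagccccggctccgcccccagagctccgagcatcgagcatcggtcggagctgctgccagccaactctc
Cnn2, chr10:79988350-79988599, plus strand: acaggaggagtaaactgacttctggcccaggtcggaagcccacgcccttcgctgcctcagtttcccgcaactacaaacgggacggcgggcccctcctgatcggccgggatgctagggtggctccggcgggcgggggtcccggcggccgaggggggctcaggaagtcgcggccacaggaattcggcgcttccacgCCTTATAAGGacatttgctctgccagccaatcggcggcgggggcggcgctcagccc
Fhl2, first site, chr1:43196762-43197011, minus strand: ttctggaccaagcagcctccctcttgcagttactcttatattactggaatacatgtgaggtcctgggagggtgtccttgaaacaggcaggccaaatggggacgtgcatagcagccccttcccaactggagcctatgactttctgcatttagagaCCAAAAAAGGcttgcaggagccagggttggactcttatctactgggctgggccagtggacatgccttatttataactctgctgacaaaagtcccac
Fhl2, other site, chr1:43163962-43164211, minus strand: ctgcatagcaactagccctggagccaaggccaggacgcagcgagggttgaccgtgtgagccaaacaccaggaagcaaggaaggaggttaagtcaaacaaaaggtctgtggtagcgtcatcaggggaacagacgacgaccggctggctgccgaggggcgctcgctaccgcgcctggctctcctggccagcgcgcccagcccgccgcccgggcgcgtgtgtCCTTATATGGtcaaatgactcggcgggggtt
Actg1, chr11:120348496-120348745, minus strand: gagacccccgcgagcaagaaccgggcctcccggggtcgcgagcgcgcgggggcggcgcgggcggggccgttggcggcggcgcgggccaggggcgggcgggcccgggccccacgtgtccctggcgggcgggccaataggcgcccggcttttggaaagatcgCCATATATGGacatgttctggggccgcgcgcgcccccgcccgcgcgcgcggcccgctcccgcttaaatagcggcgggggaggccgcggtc
Srf, chr17:46556163-46556412, minus strand: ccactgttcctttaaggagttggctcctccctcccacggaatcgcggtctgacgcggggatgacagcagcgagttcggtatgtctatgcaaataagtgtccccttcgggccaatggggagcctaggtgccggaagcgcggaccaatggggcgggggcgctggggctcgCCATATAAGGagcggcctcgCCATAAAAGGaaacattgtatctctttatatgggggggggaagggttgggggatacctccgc
Acta2, chr19:34255374-34255623, minus strand: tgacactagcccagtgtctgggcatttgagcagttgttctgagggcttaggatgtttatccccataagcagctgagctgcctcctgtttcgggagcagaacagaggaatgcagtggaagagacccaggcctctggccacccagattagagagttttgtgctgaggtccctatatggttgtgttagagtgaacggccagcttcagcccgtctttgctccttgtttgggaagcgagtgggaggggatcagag
The box of Myl9 began 161 bases before the start site, that of Cnn2 56, that of Actg1 90, those of Fhl2 96 and 31, and those of Srf 82 and 62. Acta2 held no exact match in this window and is printed because it had the largest difference in tumours. Its stretches ccctatatgg and ccttgtttgg each differ from the pattern at 1 base. Such near matches were not searched for in any gene, so no exact match does not mean that SRF has no site. Of the boxed genes, Myl9, Cnn2 and Fhl2 were at least 2-fold higher in culture, while Actg1 and Lima1 were not. So were 12.6% of all compared genes, and Cald1, Flnc, Lmod1, Palld and Tpm2, which held no exact match. All of these but Cald1 were measured only through the treated library. In tumours no boxed gene passed 2-fold, with Myl9 and Cnn2 at 0.55 and Fhl2 at -0.50. A link between box and difference was not tested. Srf had no value in culture, and the row named Myl6 is described below. A match describes these letters only.

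The actin genes differed between culture and tumours. Actb and Actg1 encode the cytoplasmic actins of every cell and Acta2 the actin of smooth muscle and myofibroblasts. Actb was at 330.5 FPKM in the DMSO library and 276 FPKM in the treated one in culture. Its tumour levels were 3808 FPKM in the vehicle library and 3973 FPKM in the treated one. Both pairs lay within 1.5-fold, though the authors' deposited table called the tumour pair with an error of 0.014 for a difference of 0.061.

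Actg1 lay lower in the treated culture, a sign that centring turned to 0.033, and higher in the treated tumour. It was at 117 FPKM in the DMSO library and 101 FPKM in the treated one in culture, which is -0.22 on the log2 scale (implied error 0.42). The tumour levels were 1132 FPKM in the vehicle library and 1556 FPKM in the treated one, which is 0.46 on the log2 scale (implied error 0.13, called). Acta2 (ENSMUSG00000035783, chromosome 19 from 34316014 to 34329810, mm9) was near the floor in culture, at 0.0645 and 0.123 FPKM, and was not measured there. In tumours it was at 82.0 FPKM in the vehicle library and 186 FPKM in the treated one, which is 1.17 on the log2 scale (implied error 0.31, called). The treated tumour library thus held 2.27 times the vehicle level. Its share of the summed FPKM of Actb, Actg1 and Acta2 went from 1.63% to 3.25%. Actg2, the actin of visceral smooth muscle, was at 0.141 and 0.0631 FPKM in culture and had too little data for an OK status in tumours. Acta1, the skeletal muscle actin gene, which is not on the list, was at 2.51 and 2.43 FPKM in tumours and was not called. Actin genes are close copies of each other, so reads shared between them may have been split by the authors' counting.

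Acta2 is a gene of smooth muscle, pericytes and myofibroblasts, so markers of these cells are given beside it. Of 12 smooth muscle and pericyte markers 10 were measured, 3 of them higher and 7 lower, with a median of -0.26 and summed levels of 287 FPKM with vehicle and 315 FPKM with NXD30001. Mcam, an adhesion molecule of the vessel wall, was at 94.9 and 200.5 FPKM and was the only marker at least 2-fold higher. The rise of the sum rests on Mcam, which was also present in the cultured cells, at 30.8 and 49.2 FPKM. Smtn, smoothelin, was at 136.8 and 77.1 FPKM and Ndufa4l2 at 22.4 and 11.2 FPKM. The defining genes Myh11, Cnn1 and Des were below 1 FPKM in both tumour libraries. Fibroblast markers had a median of -0.20 over 10 measured, with summed levels of 3258 and 2553 FPKM, and Dcn, a matrix proteoglycan, was at 344.5 and 190.1 FPKM. Pdgfra was at 141.7 and 81.5 FPKM and Thy1 at 8.67 and 14.4 FPKM. All 11 measured Schwann cell markers were higher in the treated tumour, with summed levels of 144 and 531 FPKM, among them Egr2 at 1.23 and 11.4 FPKM. Endothelial markers summed to 101 and 44.7 FPKM and macrophage markers to 1370 and 1109 FPKM, with 9 of 10 and 10 of 10 lower. The largest differences among endothelial markers were those of Tek (6.30 and 0.864 FPKM), Sox18 (8.67 and 2.19 FPKM) and Cdh5 (17.9 and 5.84 FPKM). Among macrophage markers they were those of Mrc1 (60.7 and 24.3 FPKM), Emr1 (34.1 and 17.3 FPKM) and Fcgr1 (9.57 and 5.27 FPKM). Platelet markers had 3 of 6 measured, Pf4 at 55.6 and 21.5 FPKM, Itga2b at 22.4 and 19.8 FPKM and Gp1bb at 0.890 and 1.49 FPKM. In a bulk sample fewer cells of a type and less RNA per cell cannot be told apart, and the part of these shifts in the Acta2 difference was not tested. Skeletal muscle markers were low, with 5 of 12 measured and the largest differences in Mylpf (3.31 and 22.9 FPKM), Tnnc2 (listed at 0, then 8.41 FPKM) and Atp2a1 (1.83 and 0.206 FPKM), and their part was not tested either.

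Genes that handle actin monomers and sever filaments stayed within 2-fold in both pairs. All 7 were measured in both tables, with differences from -0.69 to 0.79 in culture and from -0.35 to 0.19 in tumours. Tmsb4x, thymosin beta 4, the main monomer buffer, had the highest difference of the group in culture, at 231 FPKM in the DMSO library and 398 FPKM in the treated one. It was at 1689 and 1478 FPKM in the tumours. Tmsb10, a second thymosin, was at 94.7 and 116 FPKM in culture and at 795 and 905 FPKM in tumours. Pfn1, the ubiquitous profilin, was at 411 and 265 FPKM in culture and at 1202 and 1158 FPKM in tumours. Pfn2, the profilin enriched in neurons, was far lower, at 11.1 and 15.0 FPKM in culture and at 23.2 and 17.9 FPKM in tumours. The implied error of Pfn1 in tumours was 11.1, far above its difference of -0.054.

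The cofilin genes were ordered differently in culture and in tumours. Cfl2, the muscle-type cofilin, held 67.1% of the summed FPKM of Cfl1, Cfl2 and Dstn with DMSO and 60.4% with NXD30001, at 393 and 243 FPKM. Cfl1, the non-muscle cofilin, was at 119.8 and 107 FPKM there. In tumours Cfl1 held 85.7% and 85.96%, at 1203 and 1274 FPKM, and Cfl2 was at 74.8 and 76.6 FPKM. Dstn, which encodes destrin, was at 73.0 and 51.6 FPKM in culture and at 126.6 and 131.5 FPKM in tumours. Within each table the order of the 3 genes was the same in both libraries.

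Of the 4 tropomyosin genes, Tpm2 in culture was the one past 2-fold. It was measured there only through the treated library, which fixed its direction. Of all genes measured in that way 66.4% were at least 2-fold higher. Tpm2, the beta-tropomyosin typical of muscle, was at 0.240 FPKM in the DMSO library and 3.79 FPKM in the treated one, which is 1.95 on the log2 scale (implied error 1.08, called). It remained a minor gene of the family there, at 0.0167% and 0.245% of the summed tropomyosin FPKM. In tumours Tpm2 was at 277 and 229 FPKM, which is 14.6% and 12.2% of the family. Tpm4, a cytoskeletal tropomyosin, was the most abundant member of the whole list with DMSO, at 1015 FPKM, and stood at 993 FPKM with NXD30001. It was at 442 and 439 FPKM in tumours. Both differences of Tpm4, and that of Tpm1 in tumours, were small enough for centring to turn their sign. Tpm1 was at 323 and 448 FPKM in culture and at 951 and 939.8 FPKM in tumours, where it held 50.1% and 49.97% of the family. Tpm3 was at 98.2 and 104.5 FPKM in culture and at 227 and 273 FPKM in tumours.

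Myosin II showed the largest single difference of the list. Myh10, the heavy chain of non-muscle myosin IIB (ENSMUSG00000020900, chromosome 11 from 68505061 to 68630134, mm9), was at 98.7 FPKM in the DMSO library and 3.84 FPKM in the treated one. The level was 25.7 times lower in treated cells, which is -4.36 on the log2 scale (implied error 1.12, called). Among 12676 compared genes it went from rank 1460 to rank 8332. In tumours Myh10 was lower as well, at 58.1 FPKM in the vehicle library and 28.9 FPKM in the treated one, which is -0.98 on the log2 scale (implied error 0.33, not called). Of the 30 members measured in both tables, no other had a ratio of 2 or more in the lower direction in either pair.

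Myh9, the heavy chain of non-muscle myosin IIA, was higher in both treated libraries. It was at 69.5 and 107 FPKM in culture and at 643 and 676 FPKM in tumours. The share of Myh9 in the summed heavy chain FPKM went from 41.3% to 96.5% in culture, and that of Myh10 from 58.6% to 3.47%. In tumours Myh9 held 91.6% with vehicle and 95.9% with NXD30001, and Myh10 8.29% and 4.10%. Myh11, the smooth muscle heavy chain, was below 1 FPKM in all 4 libraries.

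**Figure D3:**
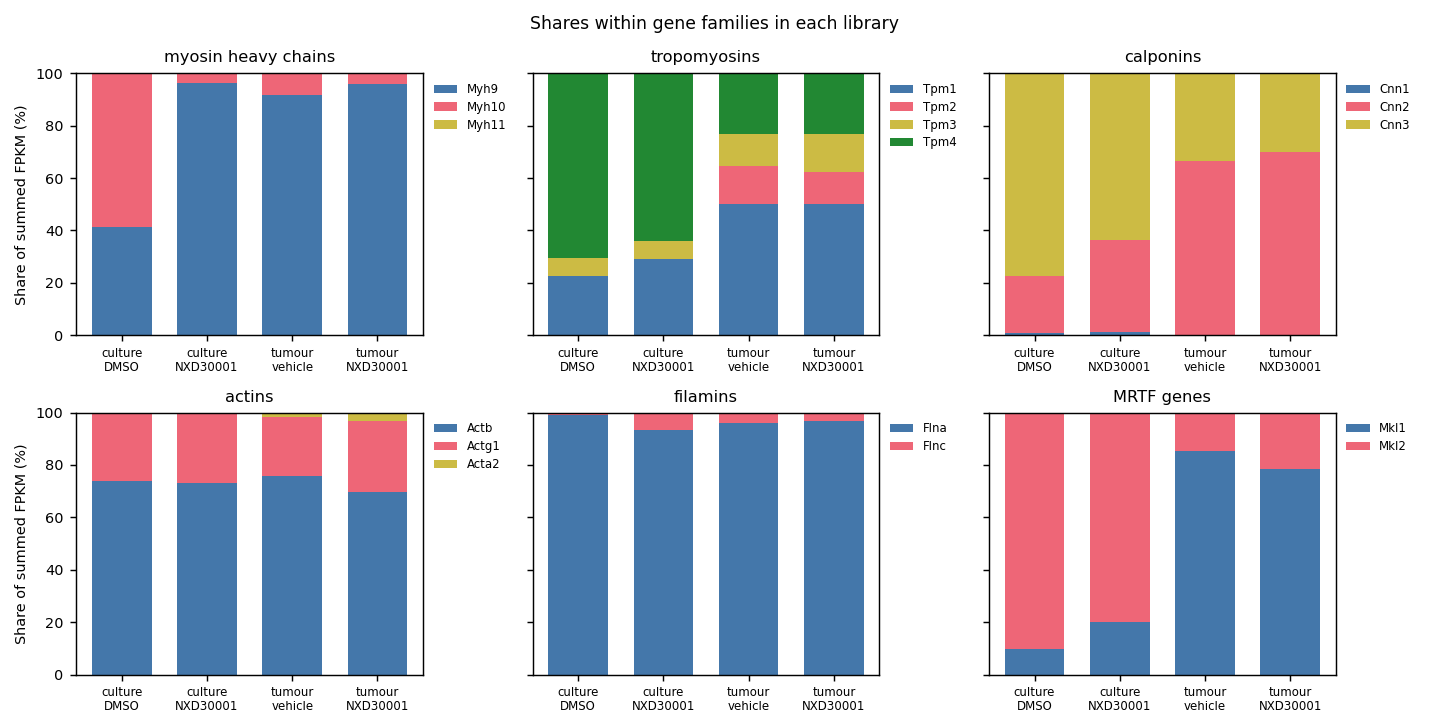
Share of each gene in the summed FPKM of its family (%), in the 4 libraries, for 6 families; each bar is 1 library and has no error. The first panel shows Myh10 at 58.6% of heavy chain FPKM with DMSO and 3.47% with NXD30001 in culture, and the last panel shows Mkl2 as the main MRTF gene in culture and Mkl1 in tumours.

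Myosin light chain genes differed among themselves in culture. Myl9, the regulatory light chain of smooth muscle and non-muscle myosin, was at 5.04 FPKM in the DMSO library and 13.1 FPKM in the treated one, which is 1.22 on the log2 scale (implied error 0.86). In tumours it was at 279.8 and 410.2 FPKM, which is 0.55 on the log2 scale (implied error 0.21, not called). The row named Myl6, the essential light chain, was at 17.4 and 50.5 FPKM in culture and at 220.2 and 238 FPKM in tumours. Its gene ID (ENSMUSG00000060680, chromosome 14, a locus of 456 bases) is a processed pseudogene, Gm8894, in GENCODE M21, and the ID that GENCODE gives Myl6 had no row, so whether these reads come from Myl6 was not tested. No row carried the symbol Myl12a. The gene ID that GENCODE gives Myl12a, another regulatory light chain, appeared as 2900073G15Rik and was not counted among the members. That row was at 107 and 339 FPKM in culture, a difference of 1.65, and at 725 and 641 FPKM in tumours, at a locus shared with other rows. Myl12b, a regulatory light chain gene outside the list, lay lower in the treated culture, at 60.8 and 44.2 FPKM. It was at 324 and 305 FPKM in tumours, with both differences below the implied error. The locus of Myl12b is shared with other rows too, so reads of neither row are assigned with certainty. Mylk, the kinase of the light chains, was below 1 FPKM in culture, listed at 0 with NXD30001, and at 11.5 and 10.4 FPKM in tumours.

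Of the 7 thin filament regulators, Cald1, Cnn2 and Cnn3 were at 1 FPKM or more in the DMSO library, and all 3 were higher in treated culture. Tagln, Cnn1 and Lmod1 were measured only through the treated library, which fixed their direction, and Tagln2, lower in treated cells, was below 1 FPKM in both. Cald1, which encodes caldesmon, an inhibitor of actomyosin (ENSMUSG00000029761, chromosome 6 from 34548500 to 34725473, mm9), was at 302 FPKM in the DMSO library and 1414 FPKM in the treated one. The difference was 2.22 with an implied error of 0.38, and the gene was called. It went from rank 539 to rank 151 of the compared genes and was the most abundant member in treated culture. In tumours Cald1 was at 469.6 and 410.5 FPKM, which is -0.19 on the log2 scale (implied error 0.13). Reads of Cald1 are not assigned with certainty, since 5 rows are given its locus.

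The calponin genes encode proteins that bind actin and damp myosin activity. Cnn2 was at 12.7 FPKM in the DMSO library and 41.1 FPKM in the treated one, which is 1.62 on the log2 scale (implied error 0.79, not called). Tumours held it at 300.2 and 440.8 FPKM, a difference of 0.55. Cnn3 was at 45.0 and 74.4 FPKM in culture and at 152 and 188 FPKM in tumours. Cnn1, the smooth muscle calponin, was at 0.454 and 1.41 FPKM in culture and below 1 FPKM in both tumours. Cnn2 was higher in the treated library of both pairs, and so was Cnn3, though by less than its implied error in each.

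Transgelins and leiomodin were near the floor in culture. Tagln, the SM22 protein of smooth muscle, was listed at 0 in the DMSO library and at 1.22 FPKM in the treated one, so no ratio is given. It was at 143 and 185 FPKM in tumours, at a locus given for 4 rows. Tagln2, its relative in other cells, was at 0.799 FPKM in the DMSO library, listed at 0 in the treated one, and at 254 and 252 FPKM in tumours. Lmod1, leiomodin 1, a smooth muscle nucleator of actin, was at 0.148 and 2.86 FPKM in culture, which is 1.75 on the log2 scale (implied error 1.12, called), and below 1 FPKM in tumours.

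Cross-linkers and adaptors had 7 members measured in both tables. Flnc, Palld and Fhl2 were at least 2-fold higher in culture, where the background was 12.6%, but Flnc and Palld were measured only through the treated library, and 66.4% of all genes measured in that way were at least 2-fold higher. None was past 2-fold in tumours. Flna, filamin A, which joins filaments into networks (ENSMUSG00000031328, chromosome X from 71468800 to 71495159, mm9), was at 64.0 FPKM in the DMSO library and 50.2 FPKM in the treated one. Its level in tumours was 1447 and 2165 FPKM, which is 0.58 on the log2 scale (implied error 0.10, called). Flnc, the muscle filamin, was at 0.493 and 3.58 FPKM in culture, which is 1.62 on the log2 scale (implied error 0.54, called). It was at 63.1 and 71.6 FPKM in tumours. The share of Flnc in the filamin sum was 0.766% and 6.65% in culture and 4.18% and 3.20% in tumours.

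Alpha-actinin 4, which bundles filaments, was lower in the treated culture and higher in the treated tumour. Actn4 was at 83.1 and 48.8 FPKM in culture, which is -0.75 on the log2 scale (implied error 0.46), and at 584 and 797 FPKM in tumours, which is 0.45 on the log2 scale (implied error 0.14). Neither was called. The culture difference remained negative after centring, unlike that of Actn1. Actn1 was at 3.18 and 2.58 FPKM in culture and at 187 and 160.5 FPKM in tumours. Lima1, a LIM protein that stabilises filaments, was at 87.3 and 74.0 FPKM in culture and at 81.6 and 79.1 FPKM in tumours, below its implied error in both.

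Palld, palladin, a scaffold of stress fibres (ENSMUSG00000058056, chromosome 8 from 63992043 to 64401631, mm9), was the only member called in both pairs, and in opposite directions. It was at 0.801 FPKM in the DMSO library and 7.37 FPKM in the treated one, which is 2.22 on the log2 scale (implied error 0.72). Palld was measured in culture only through the treated library, which fixed its direction there, so the opposite signs show little. In tumours Palld was at 81.1 FPKM with vehicle and 47.8 FPKM in the treated one, which is -0.75 on the log2 scale (implied error 0.20). Its locus is given for 4 rows. Fhl2, a LIM-domain cofactor and known SRF target, had the same pair of signs without a call, at 1.48 and 6.20 FPKM in culture and at 67.7 and 47.5 FPKM in tumours.

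None of the regulators was past 2-fold. Srf had a failed estimate in culture and no value. In tumours it was at 19.4 FPKM in the vehicle library and 31.1 FPKM in the treated one, which is 0.65 on the log2 scale (implied error 0.33, not called), at a locus given for 21 rows. Mkl1, MRTF-A, was at 1.96 and 2.40 FPKM in culture and at 49.1 and 30.2 FPKM in tumours, a difference of -0.68 there (implied error 0.22, not called). Mkl2, MRTF-B, was at 18.0 and 9.51 FPKM in culture and at 8.54 and 8.24 FPKM in tumours. Mkl2 made up 90.2% of the summed MRTF FPKM with DMSO and 79.8% with NXD30001, but 14.8% and 21.4% in the vehicle and treated tumours. Both loci are shared with other rows. Where the MRTF proteins were in the cell was not measured.

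The pairs of libraries can be set side by side because they share none. Of 30 members measured in both tables, 9 were higher in both (30%, background 19.4% of 11559 genes) and 6 lower in both (20%, background 31.6%). A further 8 were higher in culture and lower in tumours (26.7%, background 21.5%), and 7 lower in culture and higher in tumours (23.3%, background 27.5%). Higher in both were Cnn2, Cnn3, Flnc, Myh9, Myl6, Myl9, Tagln, Tmsb10 and Tpm3. Of these only Cnn2 and Myl9 differed by more than 0.5 in each pair. Flnc and Tagln here, and Palld and Tpm2 in the 8 above, were below 1 FPKM with DMSO. They were measured in culture only through the treated library, which fixed their direction there. Lower in culture and higher in tumours were Actb, Actg1, Actn4, Cfl1, Cfl2, Dstn and Flna, a share below the background. In culture Actb, Actg1, Cfl1, Dstn and Flna differed by less than the implied error, as Cfl1, Cfl2 and Dstn did in tumours. Centring turned Actg1 and Cfl1 to higher in culture.

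**Figure D4:**
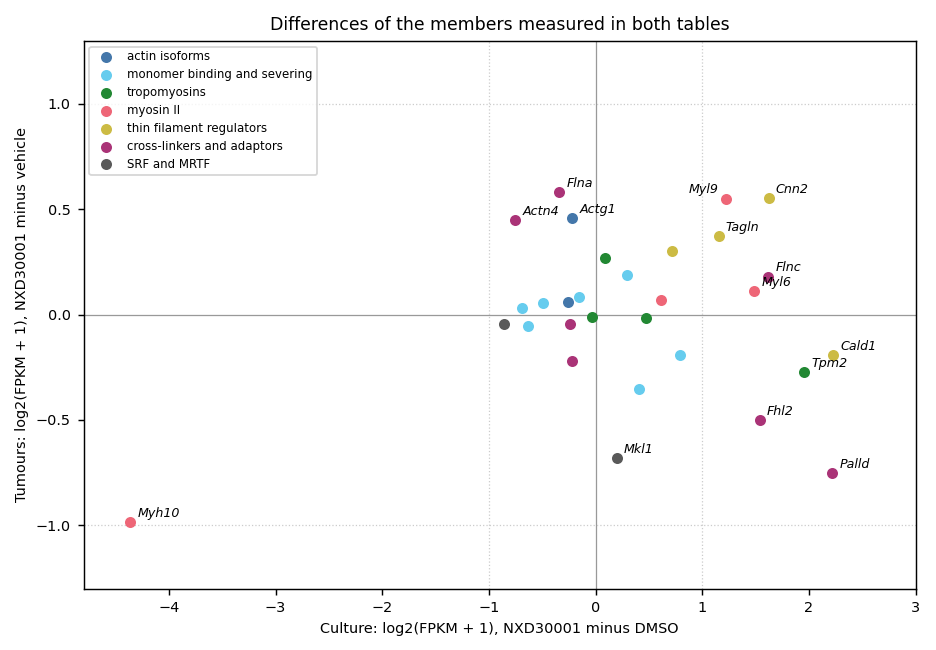
Difference in tumours against difference in culture, both on the log2(FPKM + 1) scale, for the 30 members measured in both tables; each point is 1 gene, coloured by role, with dotted lines at 2-fold. Myh10 lies alone at the lower left (-4.36 and -0.98), and the genes at least 2-fold higher in culture spread between 0.55 and -0.75 in tumours.

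Other actin genes were described from lists by role, for comparison with the members. In culture the Arp2/3 complex and other nucleators, which start new filaments, had 21 measured, with a median of -0.097. Of these 1 was at least 2-fold higher (background 12.6%) and 4 at least 2-fold lower (background 24.8%). Daam1, a formin, was at 15.1 and 84.8 FPKM and was called higher. Diap3 and Diap1, also formins, measured 23.2 and 2.64 FPKM and 8.23 and 1.22 FPKM, both called lower. In tumours none of the 21 passed 2-fold (background 7.32% higher and 6.93% lower) and the median was -0.090. Arpc3 was at 233 and 172 FPKM there, Cttn, cortactin, at 367 and 496 FPKM, and Wasl at 25.1 and 32.3 FPKM. In the tumour pair Daam1 was at 14.9 and 11.8 FPKM and Diap3 at 11.3 and 10.8 FPKM.

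Focal adhesion genes, which anchor filaments to the membrane, had 20 measured in culture, with a median of 0.11 and no call. At least 2-fold higher were 4 (background 12.6%), and 2 were at least 2-fold lower (background 24.8%). Zyx, zyxin, was at 5.64 and 23.1 FPKM, Tns1, tensin 1, at 0.908 and 4.28 FPKM, and Lims2 at 0.624 and 3.53 FPKM. In tumours 22 were measured with a median of 0.14. None was past 2-fold (background 7.32% higher and 6.93% lower), and 15 were higher by any amount (background 47.3%). Tns1 was at 55.9 and 93.7 FPKM there and Lims2 at 10.6 and 20.4 FPKM. In culture Tns1 and Lims2 were measured only through the treated library, which fixed their direction. Itgav, an integrin subunit gene, was at 99.5 and 161 FPKM in tumours and was called. Zyx was at 256 and 272 FPKM.

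Bundling and capping genes had 15 measured in culture, with a median of -0.062. Of these 1 was at least 2-fold higher (background 12.6%) and 2 at least 2-fold lower (background 24.8%). Fscn1, fascin, was at 0.283 and 2.44 FPKM, Gsn, gelsolin, at 14.0 and 5.46 FPKM, and Tmod1, tropomodulin 1, at 12.1 and 4.39 FPKM. Fscn1 was measured there only through the treated library, which fixed its direction. In tumours 17 were measured, with a median of -0.078. Past 2-fold in the lower direction were 2 (background 6.93%), and the authors called 3 lower (background 2.45%). Fscn1 was at 88.5 and 36.1 FPKM, Lcp1, the plastin of blood cells, at 62.8 and 29.3 FPKM, and Svil, supervillin, at 93.3 and 52.3 FPKM. The macrophage markers given above were lower in the same library as Lcp1, and their part in that difference was not tested. Of 17 paralogues of members that are not on the list, 6 were measured in culture and 7 in tumours. In culture Fhl3 was at 4.96 and 1.03 FPKM, Lmo7 at 0.773 and 3.62 FPKM and Myh14, the third non-muscle heavy chain gene, at 1.24 and 0.338 FPKM. In tumours Fhl1 was at 74.0 and 109.3 FPKM and had the largest difference of the paralogues, 0.56, with Lmo7 at 1.78 and 2.50 FPKM and Fhl3 at 49.9 and 59.2 FPKM.

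Markers were read in the culture pair too. Of 10 endothelial, 10 macrophage and 12 skeletal muscle markers 1 each was measured in culture, and of 6 platelet markers none. The endothelial one was Tek, at 0.0324 and 2.18 FPKM, the macrophage one Cd68, at 2.32 and 1.93 FPKM, and the skeletal muscle one Mylpf, at 1.40 and 1.94 FPKM. Of 10 fibroblast markers 3 were measured, Col1a1 at 346 and 711 FPKM, Col3a1 at 653 and 187 FPKM and Pdgfra at 2.46 and 0.487 FPKM. Of 12 smooth muscle and pericyte markers 4 were measured. Itga8, an integrin subunit gene, was at 97.4 and 4.13 FPKM and Synpo2, a stress fibre protein, was listed at 0 in the DMSO library and at 1.28 FPKM in the treated one. Schwann cell markers had 10 measured, of which 8 were lower and 2 higher, with a median of -1.25. Prx was among the higher ones (1.68 and 28.6 FPKM), and Gap43 was at 20.6 FPKM and then listed at 0. Cald1, Cnn2 and Cnn3 were higher in the same library, and the part of these shifts in that result was not tested.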

How the data were processed

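RNA of 4 libraries was sequenced. Tools listed in the submitters' processing notes are CASAVA, TopHat (version 1.2.0), Cufflinks (version 1.0.2) and Cuffdiff, with mm9 as the genome build. Strand: not given in the sources used here. Levels are FPKM as deposited by the authors, in 1 table for culture and 1 for tumours; the unit follows from those tools, since the header names none. Beside them stand, per the file headers, a natural log of the fold, a test statistic and a q-value that reached 2.05 (both read as a score), a p-value and a call. FPKM keep no read counts, so the absolute depth is unknown. Relative depth came from genes whose implied error is that of 1 fragment in each library (40 in culture, 56 in tumours).

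Rows with status FAIL or LOWDATA were left out. The difference used a pseudocount of 1 FPKM and a minimum of 1 FPKM in either library, and a symbol with several rows took its highest row. With 1 library a group no test was run, and calls are the authors'. Starts of loci were raised by 1, since end minus start equalled the GENCODE length in 10580 of 19955 loci held by 1 gene and was 1 less in 268. The calculation was tested on simulated data without noise and without low genes, which checks the arithmetic only. Python 3.11.15 with pandas 2.3.3 was used. The members, lists and alternatives were chosen with earlier results of these data known. Named are every measured member, the 3 genes of each pathway and marker list with the largest difference in each table, and genes a result turns on; some genes and 1 pathway list under that rule are not reported here.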

Additional observations from a re-analysis of the deposited data

Results flagged for a closer look

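Genes of the list or of the related actin lists that differed by at least 1.5-fold in both pairs, in opposite directions, were singled out; with 1 library a group the difference between the pairs was not tested. Palld differed by 2.22 in culture and -0.75 in tumours. Fscn1 differed by 1.42 in culture (implied error 1.05, not called) and -1.27 in tumours. Palld and Fscn1 were below 1 FPKM with DMSO. They were measured in culture only through the treated library, which fixed their direction there. Itgav differed by -0.81 in culture and 0.69 in tumours.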

How the results depend on the processing

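No paired analysis was possible because each group has 1 library. Of 13 alternatives, 4 were chosen after seeing the data (a minimum in the untreated library, centring by GC content or by level, and Myl12a by gene ID). The median of the members in culture stayed positive under all but the minimum of 10 FPKM, where it was -0.032 over 23 members; it was 0.029 with the minimum applied to the DMSO library. The 10 members at least 2-fold higher in culture became 4 with a pseudocount of 5 FPKM, 4 with the minimum of 10 FPKM, 6 without genes that share a locus, and 5 with the minimum in the DMSO library. At 1.5-fold, 5 members were lower in culture, 2 higher in tumours and 3 lower in tumours. With a pseudocount of 0.1 FPKM 1 member was 2-fold lower in tumours. Centring on the median of all compared genes moved culture by 0.25 and brought the share of all genes higher and lower to 17.8% and 18.4%. Low genes depended most on the pseudocount: Lmod1 differed by 3.58 at 0.1 FPKM and 0.61 at 5 FPKM. In culture the median difference of all genes was -0.40 among genes lowest in GC content and 0.047 among those highest; centred by GC content, 10 of 31 members were at least 2-fold higher. Under the alternatives 79 summary values kept their direction and, for counts, stayed within 1.5 times of the reported one, 8 moved further and 1 reversed. Since the absolute depth is unknown, no limit of detection can be given for genes listed at 0.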
